A study of Homo sapiens with 60 samples.

Results

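The 10 selenoprotein genes described here are SELENOW, SELENON, SELENOM, SELENOH, SELENOP, SELENOK, SELENOT, GPX1, GPX4 and TXNRD2. They were picked by symbol from the 60675 Ensembl gene rows of a table of expected counts, and all 10 matched a row. The libraries came from HT29, a human colorectal adenocarcinoma cell line, exposed for 24 h to hot-water extracts. The extracts were of 2 single herbs, Menthae Herba and Saposhnikoviae Radix, and of 5 multi-herb decoctions: Soyo-san, Okbyeongpung-san, Guibi-tang, Saengmaek-san and, with fewer libraries, Soshiho-tang. Doses were 500 µg/mL (high), 100 µg/mL (medium) and 20 µg/mL (low), with 3 libraries at each dose, except for Soshiho-tang with 1. The vehicle group of 3 libraries received 0.1% DMSO per the sample labels, whereas the design text of the series gives 2%. All groups share the same line, medium and exposure time. The sample labels give a DMSO percentage for the vehicle libraries only, so a difference in DMSO cannot be told apart from the extract in comparisons with vehicle. The labels do not say whether replicates were separate cultures, so p-values measure only the spread between these libraries.

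The list was drawn up with earlier results of these libraries known, in which SELENOW was among the strongly lowered genes under high-dose Saengmaek-san and Guibi-tang. Changes of the 10 genes against vehicle are therefore given as descriptions. Adjusted p-values are printed for comparisons between doses or between extracts, and for other genes. In bulk RNA, fewer expressing cells and less RNA per cell cannot be told apart.

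Selenoproteins carry selenocysteine, an amino acid encoded by UGA, which otherwise ends translation. A hairpin in the 3′ untranslated region of their mRNAs, bound by SECISBP2, recruits the elongation factor EEFSEC and the selenocysteine tRNA so that the ribosome reads UGA through. In mammalian cells short of selenium the mRNAs of SELENOW, SELENOH and GPX1 are known to drop, in part through nonsense-mediated decay, whereas those of GPX4 and TXNRD1 are better kept. In the gut epithelium selenoproteins are known mainly as peroxidases and thioredoxin reductases.

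The coding sequence around the selenocysteine codon is the feature that makes these genes one group, and is shown for 7 of them from GENCODE 29 on GRCh38, read 5′ to 3′ on the coding strand with the in-frame TGA in capitals and the neighbouring codons in lower case.
SELENOW: tattgtggcgctTGAggctacaagtcc
SELENOH: cattgcactagcTGAcgcgtctatggg
SELENOT: atttgtgtttccTGAggttataggcgg
SELENOM: acctgcgggggaTGAcagctgaaccgc
GPX1: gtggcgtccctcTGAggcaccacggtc
GPX4: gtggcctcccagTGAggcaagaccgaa
TXNRD2: gtgacaggctgcTGAgggtaa
In SELENOW, SELENOH, SELENOT and SELENOM a cysteine codon (tgt or tgc) stands 3 codons before the TGA, the layout of the redox motif of thioredoxin-like selenoproteins. GPX1 and GPX4 have no cysteine codon there, and TXNRD2 has one directly before its TGA, which is followed by a glycine codon and the stop. The TGA lies at chr19:47780732-47780734 on the plus strand in SELENOW and at chr11:57741816-57741818 on the plus strand in SELENOH. It lies at chr3:49358132-49358134 on the minus strand in GPX1 and at chr19:1105403-1105405 on the plus strand in GPX4. SELENOP, the secreted selenium carrier, has 10 such codons in its principal transcript.

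The libraries held 19.5 to 41.9 M expected counts (M, mega). Of the 10 HT29 epithelial markers checked, 9 averaged at least 1 CPM (counts scaled to a common library size with TMM factors), CDX1 being the exception, and the markers summed to 10660 to 14580 CPM in treated libraries and 11080 to 11710 CPM in vehicle libraries. The 5 fibroblast markers summed to 0.510 to 2.27 CPM in treated libraries and 2.12 to 2.45 CPM in vehicle libraries, the 5 immune markers to 7.56 to 13.5 and 8.98 to 10.2 CPM, and the 4 endothelial markers to 0.861 to 2.00 and 1.04 to 1.41 CPM. The library names carry a set and running number whose meaning the labels do not give. Vehicle libraries have a set of their own, both single herbs share another, as do Saengmaek-san with Guibi-tang and Soyo-san with Okbyeongpung-san, and Soshiho-tang stands alone, so set and treatment cannot be told apart in any comparison with vehicle. The vehicle set is named B1, with a letter, and was placed first by choice, since the labels give it no place among the numbers. In that order the first principal component of all other genes changed sign once. That split left 31 earlier-numbered libraries (vehicle, both single herbs, and part of Saengmaek-san and Guibi-tang) and 29 later-numbered ones (the rest, with all of Soyo-san, Okbyeongpung-san and Soshiho-tang). Ribosomal protein genes took 4.45 to 5.69% of counts in later-numbered libraries and 4.75 to 5.10% in earlier-numbered ones.

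In vehicle cells GPX4, which reduces phospholipid hydroperoxides and so guards against ferroptosis, gave the highest level per length of the 10 genes, 112 ± 2.33 CPM per kilobase of merged exons (SD, n = 3). GPX1, the cytosolic peroxidase for hydrogen peroxide, followed with 86.4 ± 1.83, and SELENOW, a small thioredoxin-like protein, with 25.9 ± 0.575 CPM per kilobase. SELENOT, an endoplasmic reticulum oxidoreductase, at 23.4 ± 0.326 and SELENOH, a nucleolar one, at 23.3 ± 0.962 CPM per kilobase of merged exons lay within their spread on this scale. TXNRD2, the mitochondrial thioredoxin reductase, stood at 6.13 ± 0.271, SELENOK, a reticulum membrane protein that supports palmitoylation, at 5.07 ± 0.240, and SELENON, a reticulum membrane protein linked to inherited muscle disease, at 2.01 ± 0.125 CPM per kilobase. SELENOP at 0.0891 ± 0.0128 and SELENOM at 0.0743 ± 0.00750 CPM per kilobase were barely present. Merged exons of SELENOW span 5261 bases against 888 in its principal transcript. Per kilobase of principal transcript SELENOW stood at 153 ± 3.41 and ranked second, after GPX4 at 246 ± 5.12 and before GPX1 at 107 ± 2.28. On that scale SELENOH, at 64.4 ± 2.66, stood above SELENOT, at 27.9 ± 0.389, and TXNRD2 at 24.3 ± 1.07 came close to SELENOT, so the order of these genes depends on the length used.

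SELENOW was lower than vehicle in every high-dose library of the 7 extracts. The vehicle libraries held 139, 133 and 137 CPM. Menthae Herba libraries held 97.2, 106 and 112 CPM at the low dose, 97.2, 95.4 and 91.5 CPM at the medium dose and 91.6, 88.6 and 86.5 CPM at the high dose. Every Menthae Herba library thus lay below every vehicle library, and the high dose lay below all low-dose libraries, while the medium dose touched the low dose at its edge. Saposhnikoviae Radix libraries held 126, 129.8 and 137 CPM at the low dose, 124, 131 and 133 CPM at the medium dose and 119.7, 125 and 123 CPM at the high dose. Here only the high dose was clear of the vehicle values, and by a narrow gap.

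Among the decoctions, Saengmaek-san libraries held 132, 129 and 118 CPM of SELENOW at the low dose, 129.7, 112 and 108 CPM at the medium dose and 102, 91.8 and 92.4 CPM at the high dose. Guibi-tang libraries held 134, 128 and 123 CPM at the low dose, 128, 111 and 117 CPM at the medium dose and 103, 97.9 and 89.5 CPM at the high dose. In both, the high dose lay below all low-dose libraries with no overlap. Soyo-san libraries held 107, 105 and 111 CPM at the low dose, 81.4, 87.0 and 92.7 CPM at the medium dose and 76.5, 75.1 and 105 CPM at the high dose. The third high-dose Soyo-san library stood apart from its 2 fellows and near the low dose. Okbyeongpung-san libraries held 101, 113 and 118 CPM at the low dose, 90.4, 114 and 105 CPM at the medium dose and 102, 102 and 113 CPM at the high dose, so the 3 doses overlapped one another while all lay below vehicle.

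**Figure D1:**
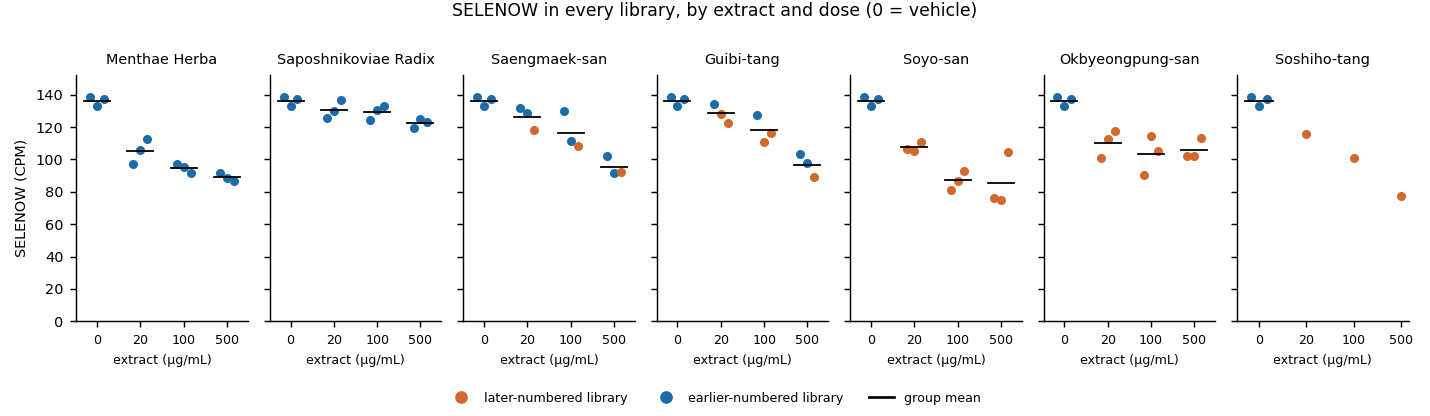
SELENOW level (CPM, vertical axis) in each of the 60 libraries, by extract and dose in µg/mL with vehicle at 0; points are libraries, coloured by whether they were numbered later or earlier, and bars are group means. Means step down over low, medium and high dose in 5 of the 6 replicated extracts, the exception being Okbyeongpung-san, where the medium dose is lowest. Soshiho-tang has 1 library per dose and no mean. The third high-dose Soyo-san library (105 CPM) lies above its fellows (76.5 and 75.1 CPM).

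The mean of SELENOW was highest in the vehicle group, 136 CPM, of the 19 replicated groups, and lowest under high-dose Soyo-san, 85.4 CPM, a ratio of 1.59. In 15 of the 18 treated groups all 3 libraries lay below every vehicle library. Neighbours in the order of group means overlapped in 18 of 18 cases, so no single step in that order exceeded the spread. Means declined stepwise over low, medium and high dose in 5 of 6 extracts, Okbyeongpung-san being the exception. As log2 changes in a fit over all 17049 tested genes, high-dose SELENOW stood at -0.61 ± 0.082 (SE) under Menthae Herba, -0.15 ± 0.081 under Saposhnikoviae Radix, -0.51 ± 0.083 under Saengmaek-san, -0.49 ± 0.082 under Guibi-tang, -0.68 ± 0.084 under Soyo-san and -0.36 ± 0.083 under Okbyeongpung-san. Without the third high-dose library the Soyo-san value was -0.85. All 18 comparisons share the 3 vehicle libraries, which also had a mitochondrial share of counts of 12.8 to 13.5%, against 9.74 to 13.9% in treated libraries, a difference whose part in the result was not tested.

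Counting genes lower than vehicle at an adjusted p under 0.05 in the high-dose groups gave SELENOW, SELENOH, GPX1 and SELENON, 4 of the 10, under Menthae Herba, where 3.98% of all tested genes were lower. Saengmaek-san gave SELENOW alone (1.89% of all genes). SELENOW and SELENON made the count 2 under Guibi-tang (0.974% of all genes), under Soyo-san (6.43%) and under Okbyeongpung-san (3.03%). Saposhnikoviae Radix gave a count of 0 with edgeR, with 0 at an unadjusted p under 0.05 and 0 with DESeq2, where 0.205% of all genes were lower. None of the 10 genes was higher at that threshold under any extract at the high dose. At the lower doses SELENOW was lower under medium-dose Menthae Herba (0.405% of all genes), Soyo-san (4.29%) and Okbyeongpung-san (1.58%), and SELENOW with SELENON under low-dose Soyo-san (1.89%) and Okbyeongpung-san (4.05%). The other 7 lower-dose groups gave 0 with edgeR. With the counts at an unadjusted p under 0.05 and with DESeq2 beside the share of all genes lower, these were low-dose Menthae Herba (3 and 1, 0.0469%), medium- and low-dose Saposhnikoviae Radix (1 and 0 each, 0.0176% and 0.106%), medium-dose Saengmaek-san (1 and 0, 0.252%) and low-dose Saengmaek-san (0 and 0, 0.0587%). Guibi-tang gave 2 and 0 at the medium dose (0.499%) and 1 and 0 at the low dose (0.346%). Because the list was chosen with such changes known, nothing is read from these counts. When each of the 6 libraries of a comparison was left out in turn, SELENON kept its call in 0 of 6 fits under high-dose Guibi-tang and low-dose Soyo-san, 2 of 6 under low-dose Okbyeongpung-san, 4 of 6 under high-dose Okbyeongpung-san and 5 of 6 under high-dose Menthae Herba. SELENOW kept its call in 3 of 6 under low-dose Okbyeongpung-san and in 5 of 6 under medium-dose Okbyeongpung-san and low-dose Soyo-san.

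SELENOH showed a shape like that of SELENOW at a lower level. Vehicle libraries held 56.1, 51.7 and 53.1 CPM. Menthae Herba libraries held 46.5, 51.8 and 51.8 CPM at the low dose, 42.9, 47.4 and 41.0 CPM at the medium dose and 40.4, 39.6 and 39.0 CPM at the high dose. The high-dose libraries were below all others of that extract and of the vehicle. Guibi-tang libraries held 55.2, 57.2 and 57.4 CPM at the low dose, 52.4, 54.5 and 51.6 CPM at the medium dose and 45.5, 46.5 and 44.1 CPM at the high dose, again with the high dose clear of the rest. Under Soyo-san the 3 high-dose libraries held 42.06, 41.98 and 56.2 CPM, the third again apart, and without it the log2 change from vehicle was -0.35 and past the threshold, instead of -0.20. No other single library left out changed that call. SELENOH overlaps BTBD18 on the opposite strand and AP001931.1 and TMX2-CTNND1 on its own, and the strand setting of the counting is not given in the sources used here.

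GPX1 stood below vehicle past the threshold under Menthae Herba alone. Vehicle libraries held 126, 121 and 123 CPM. Menthae Herba libraries held 114, 121 and 122 CPM at the low dose, 109.9, 116 and 106 CPM at the medium dose and 106, 97.2 and 101 CPM at the high dose, a stepwise decline that left the high dose below the vehicle without overlap. Under Guibi-tang the high-dose libraries held 119.0, 112 and 119.1 CPM and the low-dose ones 128, 158 and 132 CPM, so low-dose libraries lay above all vehicle libraries and high-dose libraries below them. Okbyeongpung-san libraries of all doses held 123 to 141 CPM. A pseudogene copy, GPX1P1, held 0.939% as many counts as GPX1. GENCODE 29 classes GPX1 as a polymorphic pseudogene.

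SELENON had a lower mean than vehicle in all 18 treated groups. High-dose libraries held 5.88, 6.98 and 6.89 CPM under Menthae Herba, 7.30, 6.75 and 6.62 CPM under Guibi-tang, 5.07, 6.04 and 6.44 CPM under Soyo-san and 7.09, 6.86 and 6.16 CPM under Okbyeongpung-san. Vehicle libraries held 9.50, 8.42 and 8.73 CPM, above all of these. Unlike SELENOW its means did not follow dose in most extracts: they declined over the 3 doses in 2 of 6, Menthae Herba and Saengmaek-san, and went up with dose under Saposhnikoviae Radix, at 6.999, 7.57 and 7.81 CPM for low, medium and high dose. The gene overlaps 2 others, one on its own strand.

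**Figure D2:**
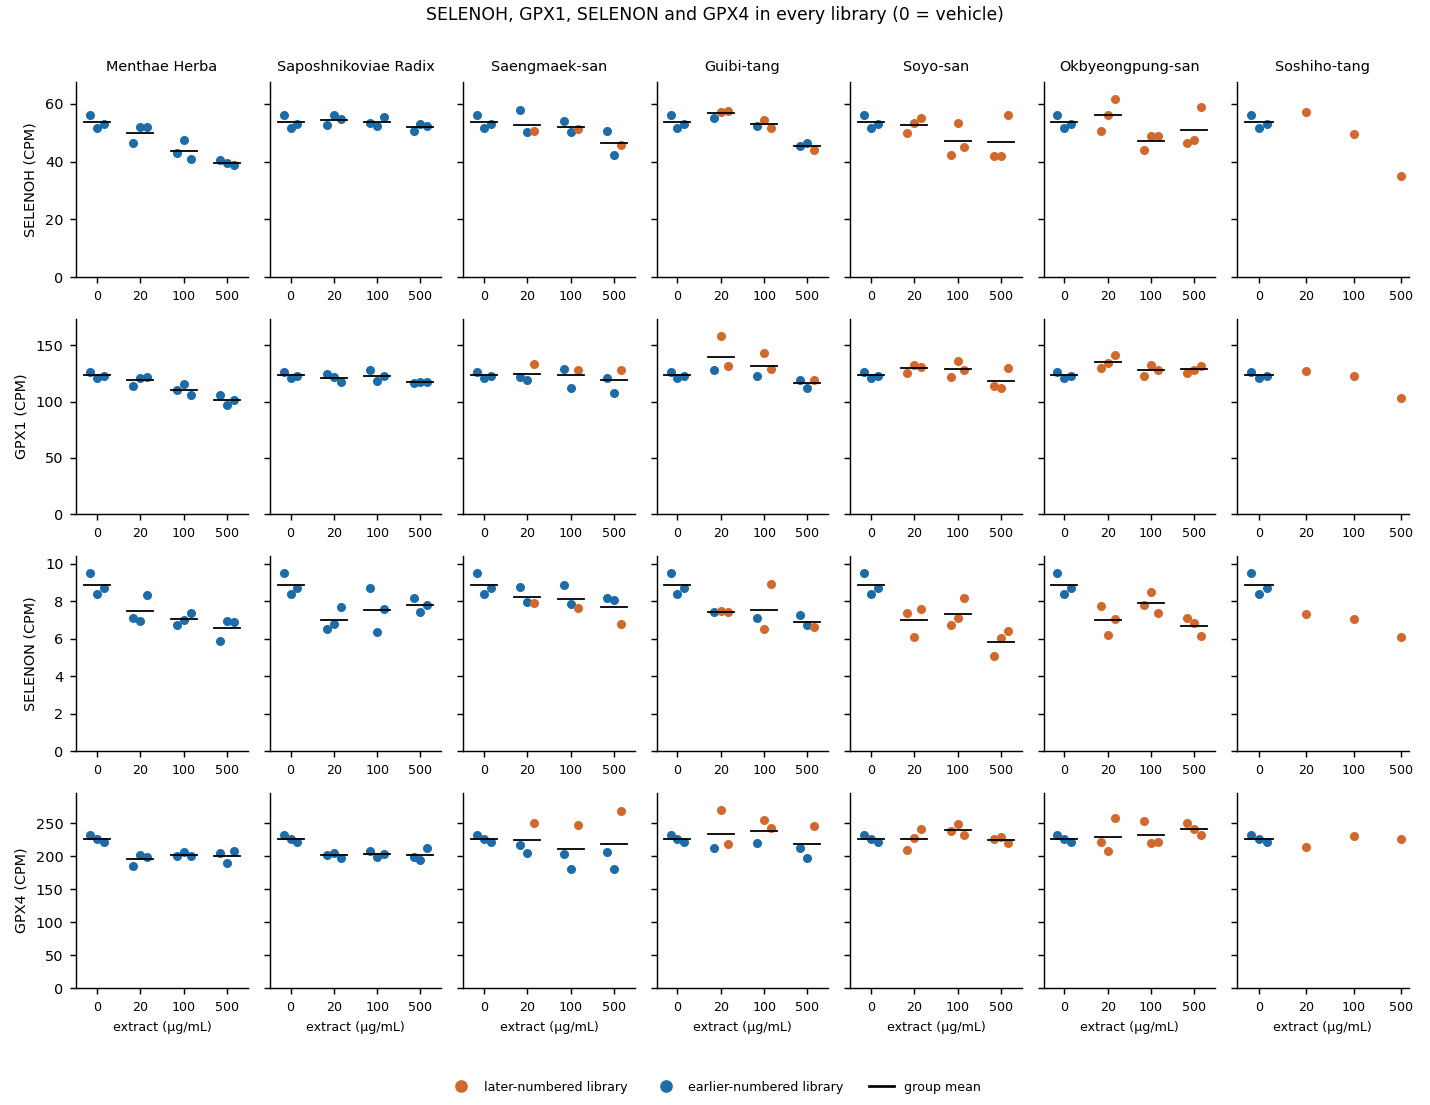
Levels (CPM, vertical axes from 0) of SELENOH, GPX1, SELENON and GPX4, 1 row each, in every library by extract and dose in µg/mL with vehicle at 0; points are libraries coloured by later or earlier number, bars are group means. SELENOH and GPX1 step down with dose under Menthae Herba (means of 39.7 and 102 CPM at the high dose), whereas GPX4 separates by library number within Saengmaek-san.

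The remaining members showed small changes. Against vehicle at the high dose the log2 changes ran from -0.17 to 0.09 for GPX4, -0.09 to 0.06 for SELENOT, -0.03 to 0.12 for SELENOK and -0.03 to 0.10 for TXNRD2. None of the 4 passed the threshold at any dose in this fit. GPX4 held 205, 189 and 208 CPM under high-dose Menthae Herba, against 231, 226 and 222 CPM in vehicle, and its means of 195, 202 and 201 CPM at low, medium and high dose followed no dose order. TXNRD2 group means stayed within 50.4 to 56.0 CPM and SELENOT group means within 90.9 to 101 CPM. SELENOM had a median of 9 counts per library and SELENOP of 14.5, and neither passed the threshold in any comparison. SELENOP held 0.145 to 0.349 CPM under high-dose Guibi-tang and 0.428 to 0.571 CPM in vehicle, groups that did not overlap, and its log2 difference was -0.86 ± 0.395.

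Comparing high with low dose of the same extract leaves the vehicle out. Under Menthae Herba SELENOH fell by 0.34 ± 0.083 (SE) on the log2 scale at the high dose relative to the low dose (edgeR adjusted p = 0.0135), and GPX1 fell by 0.23 ± 0.063 (edgeR adjusted p = 0.0331). SELENOW differed by -0.24 ± 0.083 in the same comparison and did not pass (edgeR adjusted p = 0.129). These 2 of 10 genes lower stand beside 1.23% of all tested genes. The high-dose means were 39.7 CPM of SELENOH and 102 CPM of GPX1, against low-dose means of 50.04 and 118.8 CPM, and in both the groups did not overlap. Leaving out library 2 or library 3 of either dose ended both calls, the edgeR adjusted p being at most 0.0838 for SELENOH and 0.198 for GPX1, with values of -0.31 to -0.34 and -0.20 to -0.22 in those fits.

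Under Guibi-tang GPX1 fell by 0.25 ± 0.063 at the high dose relative to the low dose (edgeR adjusted p = 0.0484), and SELENOW differed by -0.41 ± 0.083. The high-dose mean of SELENOW was 96.8 CPM and the low-dose mean 128 CPM; its high-dose libraries also served the choice of the gene, so no p is given. GPX1 and SELENOW were the 2 genes lower, where 0.141% of all tested genes were lower. Because of how SELENOW was chosen, nothing is read from this count or from its calls below. In Guibi-tang 2 of 3 high-dose libraries but 1 of 3 low-dose libraries were earlier-numbered, and with a term for library number the GPX1 difference was -0.21 (edgeR adjusted p = 0.0749). Without the second low-dose library, which held 158 CPM, it was -0.155 (edgeR adjusted p = 0.719), and 4 other single libraries left out also ended the call, at -0.22 to -0.29. SELENOW kept -0.45 with that term and -0.42 among earlier-numbered libraries alone, and leaving out single libraries gave -0.36 to -0.45, of which 4 of 6 fits did not pass. SELENOH differed by -0.32 ± 0.083 (edgeR adjusted p = 0.0831).

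Saengmaek-san separated the doses of SELENOW by -0.40 ± 0.083 log2, as widely as Guibi-tang did, with means of 95.5 CPM at the high dose and 126 CPM at the low dose; the same limit on its choice applies. Soyo-san gave -0.33 ± 0.084 (edgeR adjusted p = 0.121). Of the fits that left out a single library, only that without the third high-dose library passed, at -0.50. With all libraries kept it passed with DESeq2, at -0.334, and with no low-count filter, at -0.333, so the call depends on the processing. Okbyeongpung-san gave -0.06 ± 0.084 and Saposhnikoviae Radix -0.09 ± 0.081. These 4 extracts gave counts of 0 members lower with edgeR. Under Saengmaek-san, where 0.0117% of all genes were lower, the count was 2 at an unadjusted p under 0.05 and 1 with DESeq2. Both counts include SELENOW, so nothing is read from them. Under Soyo-san, where 0.0411% were lower, it was 4 and 1. Under Okbyeongpung-san and Saposhnikoviae Radix, where 0.0% of all genes were lower in each, it was 0 both ways. Across all 6 extracts the high-minus-low value was below 0 for SELENOW, SELENOH and GPX1 in 6 of 6. It was below 0 for SELENON and TXNRD2 in 5 of 6, and for GPX4, SELENOM and SELENOP in 4 of 6. For SELENOT it was below 0 in 3 of 6 and for SELENOK in 2 of 6. GPX4 ran from -0.10 to 0.07. The share of all genes below 0 in every extract is not given here.

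**Figure D3:**
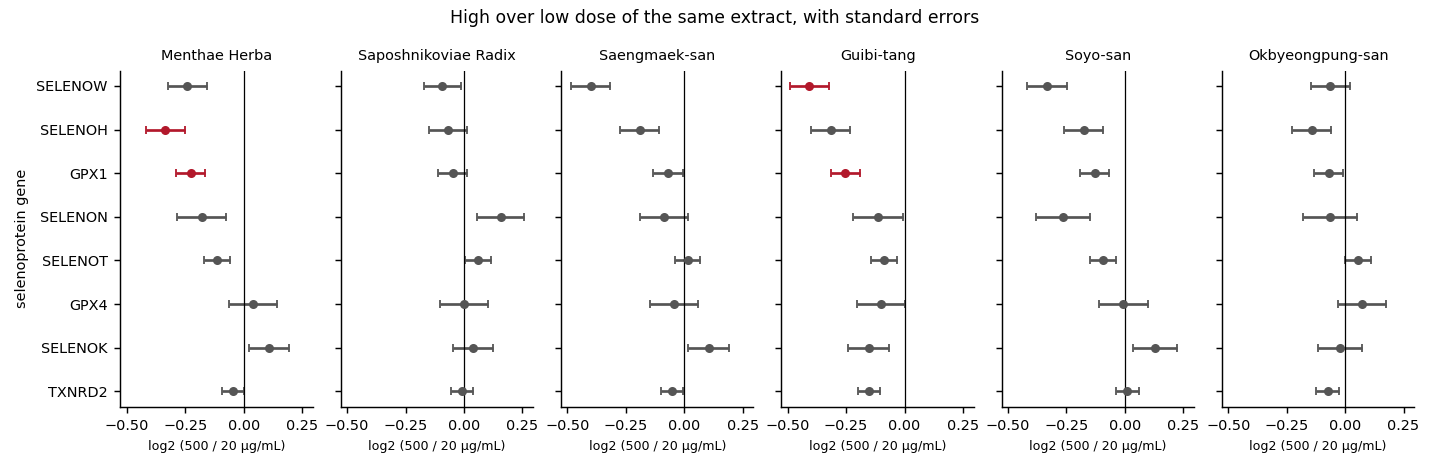
Log2 ratio of high (500 µg/mL) over low dose (20 µg/mL) for 8 selenoprotein genes in 6 extracts, with standard errors; red marks an adjusted p under 0.05, and SELENOM and SELENOP are left out for low counts. SELENOW, SELENOH and GPX1 lie left of 0 in all 6 panels, with SELENOW at -0.41 under Guibi-tang and -0.06 under Okbyeongpung-san.

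The 2 single herbs, whose libraries were all earlier-numbered, differed at the high dose. SELENOW was 88.9 ± 2.57 CPM under Menthae Herba and 123 ± 2.67 CPM under Saposhnikoviae Radix (SD, n = 3 each), a log2 difference of -0.46 ± 0.082 (edgeR adjusted p = 5.88e-04). SELENOH was 39.7 ± 0.701 CPM under Menthae Herba and 51.9 ± 1.21 CPM under Saposhnikoviae Radix, a difference of -0.39 ± 0.082 (edgeR adjusted p = 0.00501). In neither gene did the groups overlap. These 2 genes stand beside 0.604% of all tested genes lower, and GPX1 differed by -0.21 ± 0.062 without passing (edgeR adjusted p = 0.101). Guibi-tang and Saengmaek-san gave 96.8 and 95.5 CPM of SELENOW at the high dose, a log2 difference of 0.02 ± 0.083; both groups served the choice of the gene, so no p is given. Soyo-san against Okbyeongpung-san gave -0.31 ± 0.085 (edgeR adjusted p = 0.971), in a comparison where edgeR called 0 of the 17049 genes. Of the fits that left out a single library, only that without the third high-dose Soyo-san library passed, at -0.48. With all libraries kept it passed with no low-count filter, at -0.312, but not with DESeq2, so the call depends on the processing. In both of these comparisons 0 members were lower with edgeR and with DESeq2, where 0.0411% and 0.0% of all genes were lower, and 1 and 2 members were lower at an unadjusted p under 0.05. The high-minus-low effects themselves were also compared between the paired extracts. Of 30 member tests 0 passed with edgeR and 7 had an unadjusted p under 0.05 (DESeq2 was not run on these). Of all 17049 genes edgeR called 13 for the single herbs, 0 for Guibi-tang with Saengmaek-san and 0 for Soyo-san with Okbyeongpung-san. The share of all genes at an unadjusted p under 0.05 is not given, so nothing is read from these counts.

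GPX4 and GPX1 were higher in later-numbered libraries. Within Saengmaek-san, GPX4 held 247 to 268 CPM in the 3 later-numbered libraries and 180.3 to 217 CPM in the 6 earlier-numbered ones, with no overlap. Within Guibi-tang it held 218.9 to 269 CPM in the 5 later-numbered libraries and 197 to 219.2 CPM in the 4 earlier-numbered ones, which just overlap. Over the Saengmaek-san and Guibi-tang libraries the later-minus-earlier difference was 0.29 ± 0.042 log2 for GPX4, 0.13 ± 0.033 for GPX1, -0.13 ± 0.048 for SELENOW and -0.020 ± 0.053 for SELENOH. Of all tested genes 29.6% passed an adjusted p of 0.05 for this difference, GPX4, GPX1 and SELENOW among them. The split itself was placed by the expression of the genes other than those described here, which make up nearly all tested genes. The 29.6% and the adjusted p-values are therefore descriptions of that split and cannot serve as an independent test of library number.

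All Soyo-san and Okbyeongpung-san libraries were later-numbered, and all vehicle libraries counted as earlier-numbered, their set having been placed first by choice. There library number and extract cannot be told apart without borrowing that difference from the other decoctions. With it as a term SELENOW stood at -0.54 ± 0.091 under high-dose Soyo-san and at -0.23 ± 0.091 under high-dose Okbyeongpung-san, the second of these no longer past the threshold. Under Saengmaek-san and Guibi-tang the earlier-numbered libraries alone gave -0.49 and -0.44 against vehicle, close to the -0.51 and -0.49 over all libraries. GPX4 under low-dose Okbyeongpung-san turned from 0.02 to -0.27, past the threshold, with the term.

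**Figure D4:**
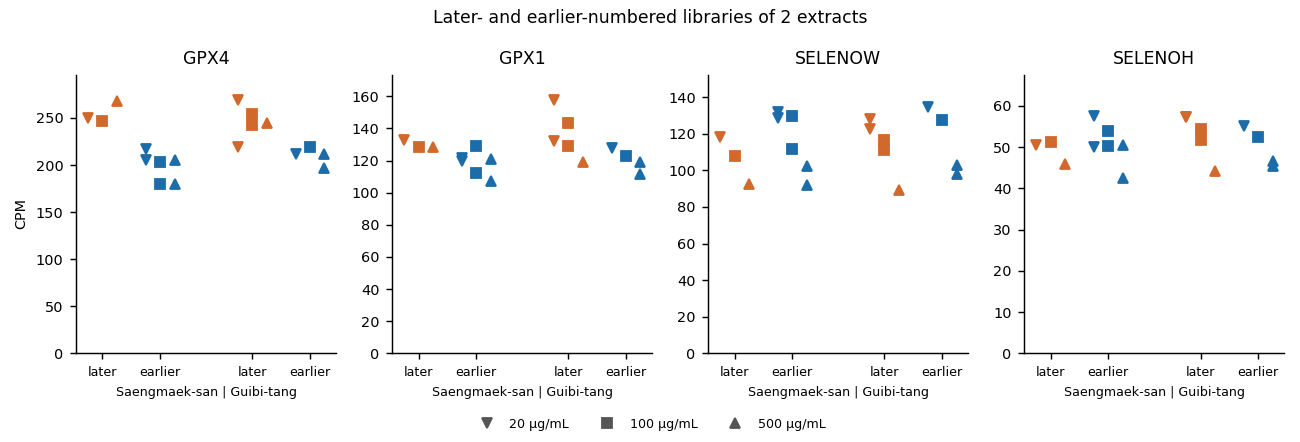
CPM (axes from 0) of GPX4, GPX1, SELENOW and SELENOH in the Saengmaek-san and Guibi-tang libraries, later-numbered left of earlier-numbered within each extract; marker shape gives the dose. GPX4 separates by number within Saengmaek-san (247 to 268 against 180.3 to 217 CPM), while the high-dose SELENOW libraries lie lowest among both the later- and the earlier-numbered ones.

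Of 15 other selenoprotein genes listed, 11 passed the low-count filter, and those that passed the threshold at the high dose were mostly higher. TXNRD1, the cytosolic thioredoxin reductase and a known NRF2 target, rose at the high dose in 6 of 6 extracts. Its high-dose libraries held 475, 481 and 450 CPM under Menthae Herba and 425, 428 and 424 CPM under Guibi-tang, against 326, 316 and 320.3 CPM in vehicle, with no overlap. The log2 changes were 0.55 ± 0.053 under Menthae Herba (edgeR adjusted p = 6.82e-11), 0.41 ± 0.053 under Guibi-tang (edgeR adjusted p = 2.76e-07) and 0.25 ± 0.053 under Okbyeongpung-san (edgeR adjusted p = 0.00237), the smallest of the 6. Between doses of one extract TXNRD1 rose by 0.40 ± 0.052 under Menthae Herba (edgeR adjusted p = 4.24e-07), 0.26 ± 0.053 under Guibi-tang (edgeR adjusted p = 0.00714) and 0.25 ± 0.053 under Soyo-san (edgeR adjusted p = 0.0222). Menthae Herba also exceeded Saposhnikoviae Radix at the high dose by 0.24 ± 0.052 (edgeR adjusted p = 0.00548), the comparison in which SELENOW and SELENOH were lower.

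For Soyo-san and Okbyeongpung-san, extract and library number cannot be told apart here either; the later-minus-earlier difference of TXNRD1 was -0.063 ± 0.030 log2.

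Under high-dose Menthae Herba 7 of the 11 rose and 0 fell, where 4.59% of all genes rose. SEPHS2, which makes selenophosphate for selenocysteine synthesis, rose by 0.28 ± 0.066 (edgeR adjusted p = 0.00402), SELENOO, a mitochondrial AMP-transferring enzyme, by 0.26 ± 0.070 (edgeR adjusted p = 0.0119), and GPX2, the peroxidase of the gut epithelium, by 0.17 ± 0.048 (edgeR adjusted p = 0.0212). MSRB1, a methionine sulfoxide reductase, rose by 0.20 ± 0.058 (edgeR adjusted p = 0.0227). Under high-dose Soyo-san 4 of the 11 rose, TXNRD1, SELENOO, SEPHS2 and MSRB1, where 8.03% of all genes rose, and GPX3, the secreted plasma peroxidase, fell by 0.26 ± 0.057 (edgeR adjusted p = 0.00152). Saengmaek-san gave 2 higher (2.39% of all genes), TXNRD1 and SELENOF, and TXNRD1 was the 1 higher under Guibi-tang (1.28%), Saposhnikoviae Radix (0.293%) and Okbyeongpung-san (4.36%). GPX3 was also lower under high-dose Okbyeongpung-san (-0.175 ± 0.057, edgeR adjusted p = 0.0468). Median log2 changes of these 11 genes at the high dose lay between 0.04 and 0.19, and those of the 10 described genes between -0.23 and 0.01, beside -0.004 to 0.009 for all tested genes. Because the 10 were chosen with earlier results known, the split is not independent of these values and nothing is read from the difference in medians.

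**Figure D5:**
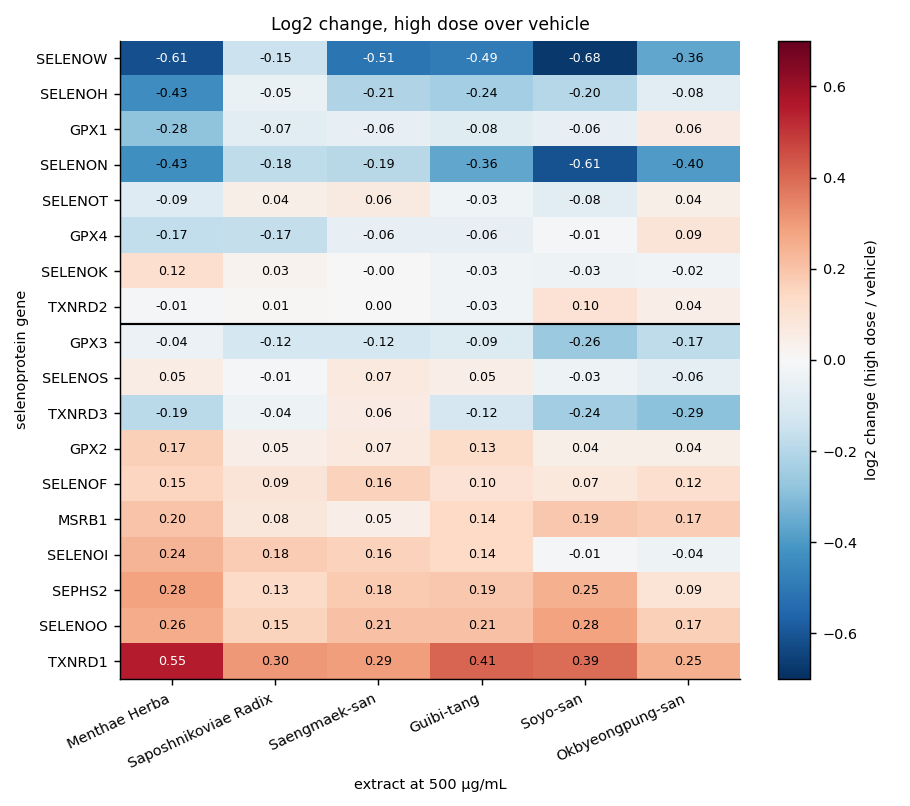
Log2 change of high dose over vehicle for 18 selenoprotein genes (rows) in 6 extracts (columns); rows above the line belong to the 10 described genes, without SELENOM and SELENOP, and rows below are others. SELENOW is negative and TXNRD1 positive in all 6 columns, at -0.61 and 0.55 under Menthae Herba.

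A list of 17 genes that build selenocysteine or deliver selenium was tested in the same fit. LRP8, the receptor that takes up SELENOP, rose under high-dose Menthae Herba, with 436, 439 and 449 CPM against 351, 353 and 352 CPM in vehicle (0.33 ± 0.039 log2, edgeR adjusted p = 2.84e-08). It rose between low and high dose of Menthae Herba by 0.34 ± 0.039 (edgeR adjusted p = 1.90e-08) and of Guibi-tang by 0.17 ± 0.039 (edgeR adjusted p = 0.0306). Under high-dose Soyo-san, where 8.03% of all genes rose, 4 of the 17 rose: TRIT1, which modifies the selenocysteine tRNA (0.30 ± 0.058, edgeR adjusted p = 4.45e-04), NCL (nucleolin, which binds selenoprotein mRNAs), SECISBP2 and SEPHS1, a paralogue of SEPHS2. SEPHS1, NCL and TRIT1 also rose under high-dose Okbyeongpung-san, where 4.36% of all genes rose. Of these NCL, SEPHS1 and SECISBP2 differed by library number as well, by 0.35 ± 0.041, 0.11 ± 0.026 and 0.065 ± 0.024 later minus earlier. Among nonsense-mediated decay factors, UPF3A, UPF3B and UPF2 were higher under high-dose Okbyeongpung-san (0.24 to 0.45, edgeR adjusted p of 0.0411 to 0.0481). UPF3A, UPF3B and UPF2 also differed by library number, by 0.30 ± 0.030, 0.44 ± 0.049 and 0.23 ± 0.030 later minus earlier. Extract and library number cannot be told apart for these rises. The split by number was placed by the expression of all genes outside the described list, so these later-minus-earlier differences are descriptions.

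Of 16 tested partners in thiol redox, 4 rose and 1 fell under high-dose Menthae Herba, where 4.59% of all genes rose and 3.98% fell. GSR, glutathione reductase, rose under high-dose Menthae Herba (81.1, 83.5 and 80.4 CPM, against 68.3, 69.8 and 67.9 CPM in vehicle; 0.25 ± 0.038, edgeR adjusted p = 7.85e-06), under Guibi-tang (0.15 ± 0.039, edgeR adjusted p = 0.0296) and under Soyo-san (0.12 ± 0.039, edgeR adjusted p = 0.0377). AIFM2, which regenerates the lipid antioxidant ubiquinol, rose by 0.28 ± 0.057 under Menthae Herba (edgeR adjusted p = 8.94e-04) and by 0.28 ± 0.058 under Soyo-san (edgeR adjusted p = 6.92e-04). TXN, thioredoxin itself, and PRDX1, a peroxiredoxin, rose under Menthae Herba by 0.25 ± 0.061 (edgeR adjusted p = 0.00515) and 0.18 ± 0.055 (edgeR adjusted p = 0.0325). MSRB2, a mitochondrial methionine sulfoxide reductase, was lower under Menthae Herba, Soyo-san and Okbyeongpung-san, at -0.26 ± 0.066, -0.32 ± 0.069 and -0.245 ± 0.069 (edgeR adjusted p = 0.00849, 0.00139 and 0.0224).

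The single Soshiho-tang libraries allow no test. SELENOW stood at 116, 101 and 77.7 CPM at low, medium and high dose, all below the vehicle range of 133 to 139 CPM. SELENOH stood at 57.01, 49.6 and 35.0 CPM, the last being the lowest SELENOH value of the 60 libraries, and GPX1 at 128, 123 and 103 CPM. TXNRD1 stood at 372, 397 and 603 CPM, the highest TXNRD1 value of the 60. GPX4 stood at 213, 231 and 226 CPM, with no dose order. At the high dose 5 of the 10 genes were below the vehicle range, 4 within it and 1 above it. At the medium dose 5 were below, 2 within and 3 above, and at the low dose 3 below, 2 within and 5 above. No share over all genes was taken, so nothing is read from these counts.

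The genes whose group means followed SELENOW most closely over the 19 replicated groups, by Pearson's r of mean log2 CPM among 10045 protein-coding genes of at least 5 CPM, were WBP1 (0.940), DEGS2 (0.896), SIDT1 (0.884), MOSPD3 (0.878) and WNK4 (0.869). SELENOH ranked 8 with 0.833. After the mean of earlier- and of later-numbered libraries had been subtracted, SELENOH ranked 2 with 0.929, behind WBP1 at 0.932, and GPX1 ranked 9 with 0.881, where it had ranked 1163 with 0.429 before. At the other end TXNRD1, SEPHS2 and SELENOO gave -0.73, -0.81 and -0.87 without that subtraction. The groups share the line, the scaling and, in part, the library numbers, and these r are descriptions.

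The stretches before the start sites of SELENOW and SELENOH are shown because their group means ran alike; each is 250 bases upstream of the RefSeq start, read 5′ to 3′ in GRCh38.p14, with GC boxes (GGGCGG on either strand) in capitals.
SELENOW chr19:47778453-47778702, plus strand: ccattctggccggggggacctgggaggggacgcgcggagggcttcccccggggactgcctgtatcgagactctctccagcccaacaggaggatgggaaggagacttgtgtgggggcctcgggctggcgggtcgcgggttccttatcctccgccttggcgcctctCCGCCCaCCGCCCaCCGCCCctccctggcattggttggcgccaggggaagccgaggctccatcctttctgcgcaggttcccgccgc
SELENOH chr11:57741241-57741490, plus strand: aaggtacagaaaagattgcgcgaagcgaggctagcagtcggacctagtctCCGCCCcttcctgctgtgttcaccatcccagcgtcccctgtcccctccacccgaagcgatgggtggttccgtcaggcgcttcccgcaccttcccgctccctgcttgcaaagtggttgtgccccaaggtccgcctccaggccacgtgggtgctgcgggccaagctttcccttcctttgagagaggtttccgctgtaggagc
Counting 50 further bases after the start, the SELENOW promoter had 3 GC boxes and was 70.3% G and C, and the SELENOH promoter had 1 and was 62.7%, against a median of 58.7% over 35116 promoters, of which 15786 hold a GC box. Neither window held the antioxidant response core TGACNNNGC (13.3% of promoters) or the aryl hydrocarbon receptor core GCGTG (36.5%) on either strand, and the SELENOH window held 1 metal response core TGCNCNC (55.9%). A match or its absence describes these letters only.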

How the data were processed

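Libraries for mRNA sequencing were prepared with a directional kit and read as 100 bp pairs, per the labels' protocols. The table deposited by the authors holds expected counts per Ensembl gene. The submitters' processing notes name FastQC 0.11.9, Trim Galore 0.6.5, STAR 2.7.3a, RSEM 1.3.3 and GRCh38; which annotation release and strand setting were used is not given in the sources at hand. Expected counts were rounded. Genes passing edgeR's low-count filter (17049) were fitted in 57 libraries and 19 groups with TMM scaling and the robust quasi-likelihood test (edgeR 4.0.16, R 4.3.3), p-values being adjusted over all genes by Benjamini-Hochberg at 0.05. Of 27 comparisons, 18 were with vehicle, 6 between high and low dose and 3 between extracts. DESeq2 1.42.0, other scaling, no filter, groups fitted alone, a replicate block, a library-number term, earlier-numbered libraries alone and leaving out each library were tried. The script recovered known changes in simulated counts, which had the same dispersion for all genes and no library-number difference, unlike these libraries. Members and lists were chosen with earlier results of these data known. All 10 members are named; up to 4 genes per list were named by smallest p among those past the threshold, and 5 genes by likeness to SELENOW. MSRB1 was named in addition, after its values were seen. Same-numbered replicates were treated as sharing only a number: the correlation of their deviations exceeded 0.1 in every pair only for Guibi-tang against Saengmaek-san at the high dose (0.144, 0.129 and 0.286), where the numbers pair the libraries. Replicate pairs differed beyond counting noise, with a chi-square per degree of freedom of at least 1.85. The result for 1 listed gene is not reported here.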

Additional observations from a re-analysis of the deposited data

Results flagged for a closer look

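SELENOW and SELENOH differed between 2 extracts in their change from the same vehicle libraries. At the high dose Menthae Herba minus Saposhnikoviae Radix was -0.463 log2 for SELENOW (edgeR adjusted p = 5.88e-04) and -0.388 log2 for SELENOH (edgeR adjusted p = 0.00501). All 3 Menthae Herba libraries were below all 3 Saposhnikoviae Radix libraries in both genes. Groups held 3 libraries or 1, so single libraries could not be tested as outliers.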

How the results depend on the processing

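SELENOW stayed below vehicle at the high dose in all 6 extracts under every alternative run, and DESeq2's size factors changed no call of a member. Values below are log2 changes of SELENOW, and causes were not tested. Fitting groups alone brought high-dose Saposhnikoviae Radix against vehicle past the threshold (-0.151); the library-number term took high-dose Okbyeongpung-san below it (-0.231). High against low dose gained a call in Menthae Herba at -0.242 with no filter, earlier-numbered libraries alone or groups alone. In Soyo-san it gained one at -0.333 with no filter and -0.334 with DESeq2. In Saengmaek-san it gained one at -0.4 with no filter, the replicate block or the number term. There it also gained one at -0.422 in earlier-numbered libraries and at -0.404 with DESeq2. Guibi-tang lost it at -0.407 with groups alone, and Soyo-san against Okbyeongpung-san gained it at -0.312 with no filter. GPX4 under low-dose Okbyeongpung-san reversed to -0.268 with the number term. Leaving out single libraries gave -0.453 to -0.356 for Guibi-tang high against low, -0.504 to -0.25 for Soyo-san high against low, and -0.482 to -0.228 for Soyo-san against Okbyeongpung-san.

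Counts of members lower are given here with the number of all genes lower, of 17049 tested or, with no filter, of 37389. Against vehicle at the high dose they became 1 (earlier-numbered alone, 264 genes) and 2 (groups alone, 359 genes) for Saposhnikoviae Radix. For Saengmaek-san they became 2 (no filter, 443 genes) and 3 (earlier-numbered alone, 715 genes). They became 1 for Guibi-tang (earlier-numbered alone, 322 genes) and 0 for Okbyeongpung-san (number term, 179 genes). Between high and low dose they became 1 for Saengmaek-san with no filter (59 genes), the replicate block (5), the number term (6), earlier-numbered libraries (3) or DESeq2 (7). For Guibi-tang they became 1 with the number term (27 genes) or earlier-numbered libraries (4) and 0 with groups alone (0). For Soyo-san they became 1 with no filter (76 genes) or DESeq2 (16). Without single libraries they ran from 1 to 1 for Guibi-tang and 1 to 2 for Okbyeongpung-san against vehicle. Between doses they ran from 0 to 2 for Menthae Herba, 0 to 1 for Guibi-tang and 0 to 1 for Soyo-san. The number of all genes lower is not given for the fits without single libraries. Because members were chosen with earlier results known, nothing is read from any of these counts. The replicate block also brought SELENOW under low-dose Menthae Herba past the threshold against vehicle (-0.373) and changed no other call of a member. Groups of 3, and counts of SELENOM and SELENOP with medians of 9 and 14.5 per library, limit the precision.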
